A study of Mus musculus with 17 samples.

Results

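The thick ascending limb is the last part of the loop of Henle in the kidney tubule, just before the distal convoluted tubule. Its cells take sodium, potassium and chloride up from the urine through the cotransporter NKCC2, return potassium to the urine through the channel ROMK, and let chloride leave on the blood side through channels that need the subunit barttin. The resulting voltage drives sodium, calcium and magnesium between the cells through pores of claudins, and the same cells secrete uromodulin, the most abundant protein of normal urine. Levels of 8 genes of this segment were compared across 17 mouse kidney libraries. They are Slc12a1, which encodes NKCC2, Kcnj1, which encodes ROMK, Bsnd, which encodes barttin, Umod, the claudin genes Cldn10, Cldn16 and Cldn19, and Ptger3, which encodes the prostaglandin E2 receptor EP3. They were chosen by name as known genes of the segment, with earlier results of these data known. All 8 were among the 17011 genes tested of the 35971 genes in the table.

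The kidneys came from mice with an allele of the fusion gene PRCC-TFE3 at Rosa26 that is silent until Cre recombinase removes a stop cassette. Cre was driven by the Cadherin 16 (Ksp) promoter, which is active in kidney epithelium, so that a whole kidney also holds cells in which the fusion gene stayed silent. Cre(-) kidneys (n = 4) carried the fusion allele without Cre, and of these replicates 1 and 2 also carried the HIF1a flox allele on both chromosomes while replicates 3 and 4 carried no flox allele. The other 13 libraries were all KSP-Cre(+) with the fusion allele: PRCC-TFE3 KI (KI, n = 3), KI/Hif1α KO (n = 4), KI/Hif2α KO (n = 3) and KI with both genes floxed (KI/DKO, n = 3). Mice were killed at 8 months of age for histology, and the labels of the libraries give no age. Libraries of 1 group came from different mice. Since the library numbers run mostly group by group, the order of the libraries and their genotype cannot be told apart.

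Libraries held 16504419 to 24668827 counts, and 3 counts, the least taken as a signal, corresponded to 0.122 to 0.182 CPM (counts scaled to 1000000 per library). Gene-level counts do not show whether a floxed exon is present. Hif1a read 184 to 232 CPM in KI and 163 to 198 CPM in KI/Hif1α KO kidneys, and Epas1, the gene of HIF2α, read 173 to 192 CPM in KI and 136 to 149 CPM in KI/Hif2α KO kidneys. Markers of other cell types differed between the groups too, and not all in 1 direction. The 8 proximal tubule markers summed to 3815 to 4359 TPM (a unit that also corrects for transcript length) in Cre(-) and 180.8 to 240.0 TPM in KI kidneys, where 8 of 8 were lower, and the 4 distal convoluted tubule markers to 1078 to 1561 and 125.9 to 181.2 TPM, where 4 of 4 were lower. The 4 thin limb markers summed to 488.0 to 596.0 TPM in Cre(-) and 781.1 to 1009 TPM in KI kidneys (2 higher, 2 lower), and the 6 principal cell markers to 248.7 to 337.0 and 303.0 to 369.6 TPM (1 higher, 4 lower). Tubular injury markers summed to 11.42 to 16.28 TPM in Cre(-) and 396.9 to 811.5 TPM in KI kidneys (5 of 5 higher, median log2 fold change 4.47), and fibroblast markers to 57.64 to 72.6 and 137.8 to 197.2 TPM (4 of 5 higher). Macrophage markers summed to 90.57 to 104.9 TPM in Cre(-) and 1902 to 2135 TPM in KI kidneys (5 of 6 higher, median log2 fold change 1.95). Most of that sum was Cd68, a lysosomal protein abundant in macrophages, with 3.313 to 5.891 TPM in Cre(-) and 1563 to 1745 TPM in KI kidneys. KI replicate 2 stood apart in adipocyte markers, with a sum of 1076 TPM against 86.47 and 119.0 TPM in the other KI libraries. Of all genes tested, 29.3% were called lower and 31.6% higher in KI than in Cre(-) kidneys. No marker of these 8 lists was at 0 in all libraries. The part of these shifts in the results below was not tested, and in whole kidneys fewer cells of a type and less RNA per cell cannot be told apart.

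In Cre(-) kidneys the levels spanned a wide range. Per length, Umod was highest with a mean of 1527 TPM, followed by Slc12a1 (496.2 TPM), Cldn10 (168.2 TPM), Kcnj1 (152.8 TPM), Ptger3 (44.53 TPM), Bsnd (35.81 TPM), Cldn19 (20.71 TPM) and Cldn16 (6.711 TPM). The plot of CPM by library shows the same genes on a scale that can be compared between libraries but not between genes.

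**Figure D1:**
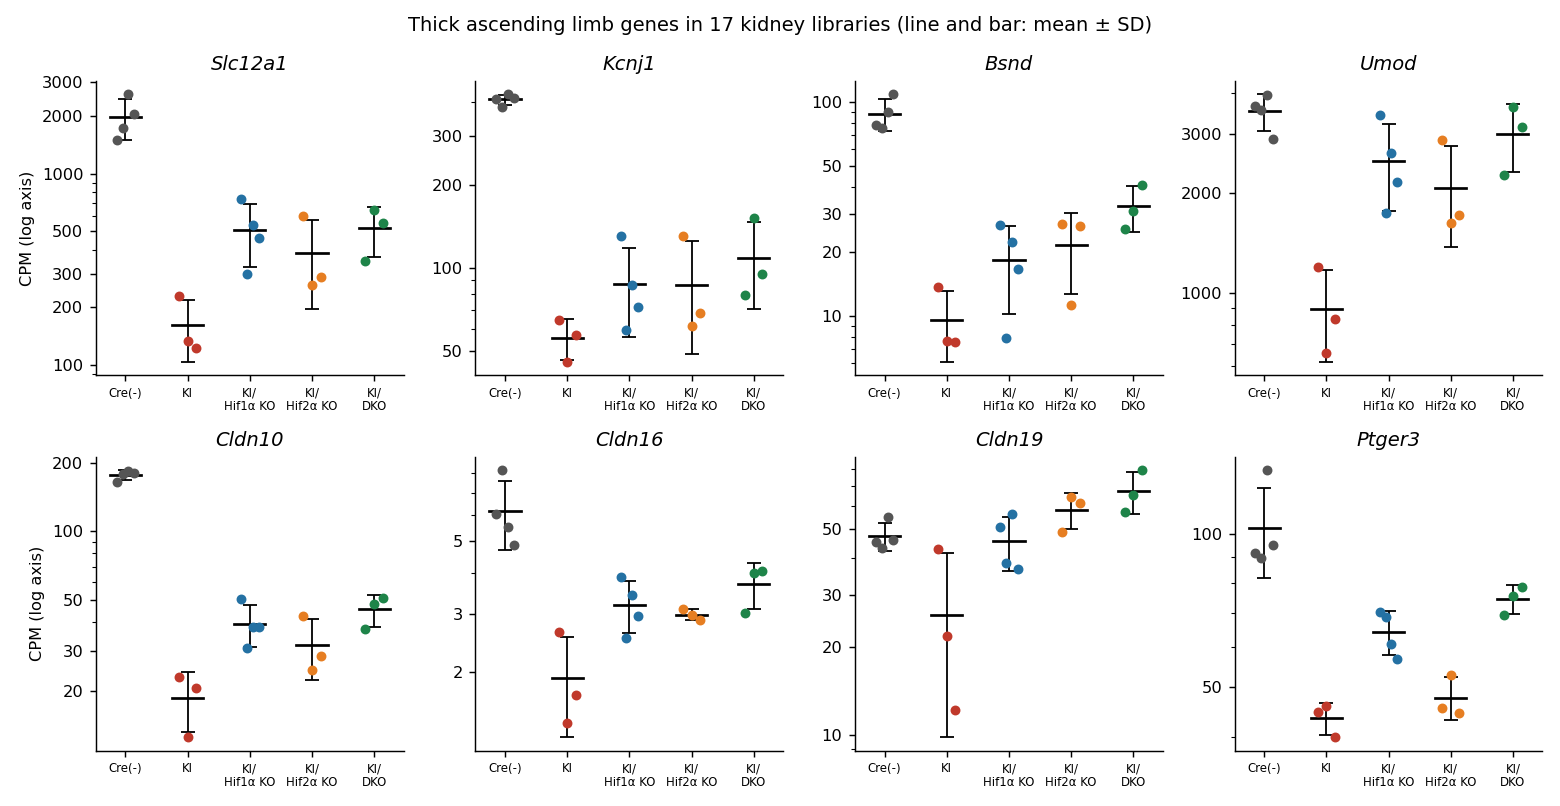
CPM of the 8 thick ascending limb genes (log axis) in the 17 kidney libraries, with 1 point per library, a line at the mean and a bar of 1 SD for each of the 5 groups. In Slc12a1, Kcnj1, Bsnd, Cldn10, Cldn16 and Ptger3 all 13 KSP-Cre(+) libraries lie below the 4 Cre(-) libraries, whereas for Cldn19 the KI/DKO libraries lie above them.

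KI kidneys had lower CPM of all 8 genes than Cre(-) kidneys, without overlap between the groups, and all 8 passed edgeR's quasi-likelihood test. In TPM, Cldn19 overlapped, with 22.61 TPM in KI replicate 1 and 18.23 TPM in the lowest Cre(-) library. Of all genes tested 29.3% were called lower and 27.7% were lower without overlap. The median log2 fold change of the 8 genes was -2.42, and that of all genes tested was 0.03. The genes of salt transport across the cell fell most, together with Cldn10, and Cldn19 fell least.

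Slc12a1 (chr2:125152505-125230002 in GRCm38, plus strand) read 1498, 1745, 2599 and 2048 CPM in Cre(-) replicates 1 to 4 and 229, 134 and 123 CPM in KI replicates 1 to 3. KI libraries thus held 8.22% of the Cre(-) mean, a 12.2-fold lower level in the fit (log2 fold change -3.60 ± 0.40 (SE), adjusted p = 1.44e-06). Kcnj1 (chr9:32372493-32399197, plus strand) read 410, 384, 426 and 412 CPM in Cre(-) and 64.3, 45.6 and 56.9 CPM in KI kidneys. The Cre(-) libraries of Kcnj1 lay close together, and the fall was 7.34-fold (-2.88 ± 0.32, adjusted p = 1.46e-06). Bsnd (chr4:106483456-106492283, minus strand) read 78.0, 75.3, 90.0 and 109 CPM in Cre(-) and 13.6, 7.59 and 7.59 CPM in KI kidneys. It was 9.16-fold lower (-3.20 ± 0.40, adjusted p = 5.17e-06). In each of these 3 genes KI replicate 1 was the highest KI library and lay well under the lowest Cre(-) library.

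Umod (chr7:119462711-119479282, minus strand) remained abundant. It read 3648, 3553, 3948 and 2906 CPM in Cre(-) and 1193, 657 and 833 CPM in KI kidneys, where 25.5% of the Cre(-) mean was left. The change was 3.93-fold (-1.97 ± 0.28, adjusted p = 1.76e-05). In KI kidneys the mean of Umod was 538.2 TPM and that of Slc12a1 was 56.7 TPM.

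The claudins, which form the paracellular pores, fell by unequal amounts. Cldn10 (chr14:118787908-118875489, plus strand) read 164, 178, 184 and 180 CPM in Cre(-) and 22.9, 12.5 and 20.6 CPM in KI kidneys, a 9.48-fold fall (-3.24 ± 0.24, adjusted p = 2.36e-08). As the transcripts show further on, most of this signal is not the form of Cldn10 that the thick ascending limb is known for. Cldn16 and Cldn19, known to form together a pore for calcium and magnesium, changed less. Cldn16 (chr16:26463135-26482765, plus strand) read 6.03, 8.19, 5.49 and 4.86 CPM in Cre(-) and 2.64, 1.40 and 1.71 CPM in KI kidneys (3.20-fold lower, -1.68 ± 0.24, adjusted p = 2.29e-05). Cldn19 (chr4:119255414-119262438, plus strand) read 45.4, 43.4, 55.1 and 46.1 CPM in Cre(-) and 43.0, 21.6 and 12.2 CPM in KI kidneys. KI replicate 1 was level with the lowest Cre(-) library and KI replicate 3 far below it, so that the 1.85-fold fall (-0.89 ± 0.29) had an adjusted p of 0.0159. Without KI replicate 2 the adjusted p of Cldn19 was 0.0665, without KI replicate 3 it was 0.0637, and with only the 2 groups in the fit it was 0.051.

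Ptger3 (chr3:157566892-157645888, plus strand), whose receptor is known to dampen the cyclic AMP response of the segment, had the tightest KI values. It read 91.5, 89.7, 133 and 95.1 CPM in Cre(-) and 44.8, 45.9 and 39.9 CPM in KI kidneys. The fall was 2.35-fold (-1.23 ± 0.13, adjusted p = 9.53e-07). The most abundant coding transcript of Ptger3 alone overlapped between Cre(-) and KI kidneys in TPM, as shown further on.

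With Hif1α removed in fusion kidneys, 4 of the 8 genes were higher than in KI kidneys, where 2.57% of all genes tested were called higher. The median log2 fold change was 0.88 for the 8 genes and 0.00 for all genes tested. All comparisons with KI share the same 3 KI libraries. Slc12a1 read 741, 299, 538 and 461 CPM in KI/Hif1α KO replicates 1 to 4 (1.65 ± 0.36, adjusted p = 0.0195). Umod read 3434, 1742, 2635 and 2152 CPM (1.48 ± 0.27, adjusted p = 0.01). Cldn10 read 50.4, 30.8, 38.0 and 38.1 CPM (1.08 ± 0.22, adjusted p = 0.015). In all 3 genes replicate 1 was highest and replicate 2 lowest, and the lowest library still lay above every KI library. Ptger3 also cleared the KI libraries, at 70.4, 68.7, 60.9 and 56.8 CPM (0.56 ± 0.13, adjusted p = 0.0233). These 4 of 8 genes were higher without overlap, where 8.96% of all genes tested were. The other 4 genes were not called by edgeR, with log2 fold changes of 0.93 for Bsnd (adjusted p = 0.164), 0.83 for Cldn19 (0.111), 0.74 for Cldn16 (0.0837) and 0.65 for Kcnj1 (0.208). The libraries of these 4 overlapped those of KI kidneys: Kcnj1 read 130, 59.3, 86.2 and 72.2 CPM, and Bsnd 26.7, 7.89, 22.1 and 16.5 CPM. All 8 genes had an unadjusted p under 0.05 in edgeR. DESeq2 called 5 genes, with Cldn19 added (adjusted p = 0.045), and limma on log2(TPM + 1) called 3, with Ptger3 lost (adjusted p = 0.0518).

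Single libraries weighed on these calls. Umod was called in every fit that left out 1 library. Slc12a1 was lost without KI replicate 2 (adjusted p = 0.0738), KI replicate 3 (0.0684), KI/Hif1α KO replicate 1 (0.0555) or replicate 3 (0.0512), and Cldn10 without KI replicate 2 (0.0544). Ptger3 was lost without any one of the KI libraries or KI/Hif1α KO replicates 1 and 3 (adjusted p 0.0503 to 0.0798). Other calls were gained: Cldn16 (0.0369) and Cldn19 (0.00939) without KI replicate 1, and Bsnd (0.0423) without KI/Hif1α KO replicate 2. The number of genes called was therefore 1 without KI replicate 2, and 2 without KI replicate 3 or without KI/Hif1α KO replicate 1 or 3. With only the 2 groups in the fit it was 1 gene, Ptger3.

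With Hif2α removed, 1 of the 8 genes was called higher than in KI kidneys, where 0.747% of all genes tested were. Umod read 2877, 1624 and 1710 CPM in KI/Hif2α KO replicates 1 to 3 (1.21 ± 0.28, adjusted p = 0.0489). This call stood at the threshold and was lost without KI replicate 2 (adjusted p = 0.115), KI replicate 3 (0.207) or any one of the KI/Hif2α KO libraries (0.0677 to 0.124). Without KI replicate 1, 4 genes were called, and DESeq2, which called 5.93% of its genes in either direction, called 5 of 8. Slc12a1 read 603, 263 and 289 CPM (1.25 ± 0.38, adjusted p = 0.0955), and Cldn10 read 42.5, 24.6 and 28.2 CPM (0.77 ± 0.23, adjusted p = 0.0943). Both lay above every KI library without passing the test, as did Cldn19 at 49.0, 64.4 and 61.5 CPM (1.19 ± 0.31, adjusted p = 0.0638) and Cldn16 at 3.11, 2.98 and 2.88 CPM (0.64, adjusted p = 0.186). Together with Umod, 5 of 8 genes were higher without overlap, where 9.52% of all genes tested were. Kcnj1 (130, 61.2 and 68.2 CPM) and Bsnd (26.9, 11.2 and 26.2 CPM) overlapped the KI libraries. Ptger3 was the gene nearest its KI level, at 45.7, 53.0 and 44.5 CPM (0.13 ± 0.14, adjusted p = 0.636).

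With both genes removed, 7 of the 8 genes were higher than in KI kidneys, where 6.53% of all genes tested were called higher, and all 8 were higher without overlap, where 16.5% of all genes tested were. The median log2 fold change of the 8 genes was 1.34. Umod read 2256, 3630 and 3146 CPM in KI/DKO replicates 1 to 3 (1.75 ± 0.29, adjusted p = 0.00266). Bsnd read 25.6, 31.0 and 41.1 CPM (1.76 ± 0.40, adjusted p = 0.0121). Slc12a1 read 351, 648 and 555 CPM (1.68 ± 0.38, adjusted p = 0.0119). KI/DKO replicate 1 was the lowest of the 3 libraries in all 8 genes. Cldn19 read 57.4, 65.2 and 79.4 CPM (1.40 ± 0.31, adjusted p = 0.0112), Cldn10 read 37.3, 48.0 and 50.9 CPM (1.28 ± 0.23, adjusted p = 0.00428), and Cldn16 read 3.02, 4.00 and 4.05 CPM (0.94 ± 0.25, adjusted p = 0.0258). The 3 claudins thus moved in the same direction. Ptger3 read 69.2, 75.5 and 78.6 CPM (0.77 ± 0.14, adjusted p = 0.0039). Kcnj1 read 79.4, 152 and 94.7 CPM and missed the threshold in edgeR (0.97 ± 0.31, adjusted p = 0.0526), whereas DESeq2 (adjusted p = 0.0135) and limma on log2(TPM + 1) (0.0345) called all 8 genes.

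Umod, Cldn10 and Ptger3 were called in KI/DKO against KI whichever library was left out. The number called was 4 without KI replicate 3, where Slc12a1 (adjusted p = 0.0576), Bsnd (0.057) and Cldn16 (0.0952) were lost, and 4 without KI/DKO replicate 3, where Bsnd (0.0537), Cldn16 (0.0897) and Cldn19 (0.0503) were lost. Without KI/DKO replicate 2, Slc12a1 (0.0547) and Cldn16 (0.0936) were lost, and without KI replicate 2 Cldn16 (0.0911) was. Without KI/DKO replicate 1, Kcnj1 was called (0.0362). With only the 2 groups in the fit, Cldn16 (0.0951) and Cldn19 (0.0857) were lost.

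The 2 single knockouts were compared directly, and none of the 8 genes was called by edgeR (1 at an unadjusted p under 0.05), DESeq2 or limma, where 0.429% of all genes tested were called by edgeR in either direction. Log2 fold changes of KI/Hif1α KO over KI/Hif2α KO ran from -0.36 for Cldn19 to 0.43 for Ptger3. Ptger3 was the one gene whose libraries did not overlap, at 56.8 to 70.4 CPM in KI/Hif1α KO and 44.5 to 53.0 CPM in KI/Hif2α KO kidneys (0.43 ± 0.13, unadjusted p = 0.00429, adjusted p = 0.138), where 8.31% of all genes tested were higher without overlap. A p that misses the threshold does not show that the 2 knockouts act alike.

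**Figure D2:**
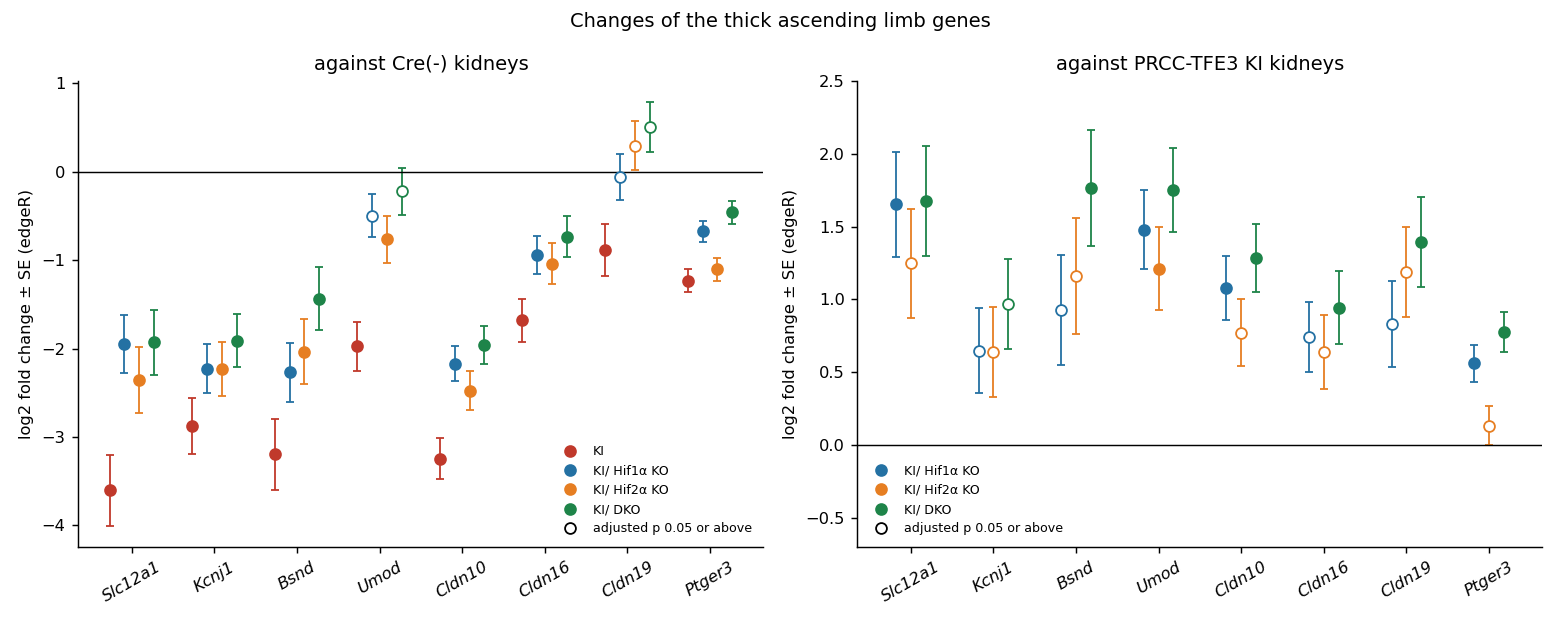
Log2 fold changes from edgeR (points, bars of 1 SE) of the 8 genes against Cre(-) kidneys on the left and against KI kidneys on the right; filled points passed an adjusted p of 0.05. On the left all 8 KI points lie below 0, and on the right all points lie above 0, from 0.13 for Ptger3 in KI/Hif2α KO to 1.76 for Bsnd in KI/DKO kidneys.

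Measured against Cre(-) kidneys, which all these comparisons share, the knockout groups stood at levels that varied widely by gene. In KI/Hif1α KO kidneys 6 of 8 genes were lower, where 30.1% of all genes tested were. In KI/Hif2α KO kidneys 7 of 8 were (29.9% of all genes tested), and in KI/DKO kidneys 6 of 8 were (27.9%). Slc12a1 was at 25.9%, 19.5% and 26.3% of its Cre(-) mean in KI/Hif1α KO, KI/Hif2α KO and KI/DKO kidneys. Kcnj1 was at 21.3%, 21.2% and 26.6%, Cldn10 at 22.3%, 18% and 25.7%, and Bsnd at 20.8%, 24.4% and 37.0%. These 4 genes had log2 fold changes between -2.47 and -1.43 and were called lower in all 3 groups. Cldn16 stood at 52.2%, 48.7% and 60.1% and Ptger3 at 62.7%, 46.6% and 72.7%, and both were called lower in all 3 groups.

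Umod and Cldn19 came nearer to the Cre(-) level. Umod was at 70.9% of its Cre(-) mean in KI/Hif1α KO kidneys (log2 fold change -0.50, adjusted p = 0.0872), 58.9% in KI/Hif2α KO (-0.76, adjusted p = 0.0209) and 85.7% in KI/DKO kidneys (-0.22, adjusted p = 0.486). Without KI/Hif1α KO replicate 1, the highest of that group, Umod was called lower (-0.69, adjusted p = 0.0233), and in KI/Hif2α KO kidneys the call was lost without replicate 2 (adjusted p = 0.098) or replicate 3 (0.0876). Cldn19 was at 96.0%, 123% and 142%, with log2 fold changes of -0.06, 0.30 and 0.50 and none called. The 3 KI/DKO libraries of Cldn19 nevertheless lay above all 4 Cre(-) libraries, where 30.8% of all genes tested were higher without overlap, and Cldn19 was called higher there with only the 2 groups in the fit (adjusted p = 0.00615).

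The scale bears on the smaller of these differences. TMM factors were 0.793 to 0.833 in Cre(-) and 0.974 to 1.12 in the other libraries, and on TPM, which carries no such factor, the median log2 difference of all genes from Cre(-) was 0.38 in KI and 0.45 in KI/DKO kidneys. With limma on log2(TPM + 1), all 8 genes were still lower in KI kidneys. Ptger3 in KI/DKO kidneys turned from -0.46 to 0.24, which is below that median, and was not called. Cldn16 in KI/DKO (-0.16), Umod in KI/Hif2α KO (-0.28) and Ptger3 in KI/Hif1α KO kidneys (-0.07) were not called on TPM. Cldn19 in KI/DKO kidneys was called higher (0.79). Of all genes tested, limma called 10008 higher and 1845 lower in that comparison, so that a call of higher was common on this scale. Without KI/DKO replicate 1 or with Cre(-) replicates 3 and 4 alone, Cldn16 was also not called in KI/DKO kidneys (adjusted p = 0.0651 and 0.132).

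The ratio of 2 genes within a library does not depend on that scale, and it differed among the 8 genes. The level of each gene relative to Slc12a1 was tested by exact permutation, two-sided, on log2 ratios of TPM, with adjustment over 9 items (the other 7 genes and both forms of Cldn10). Umod per Slc12a1 was 2.43 to 4.24 in the 4 Cre(-) libraries and 8.03 to 12.0 in the 13 KSP-Cre(+) libraries, 3.01-fold higher (exact p = 0.00042, the smallest these libraries can give, adjusted 0.000945). Cldn16 per Slc12a1 was 0.00892 to 0.0207 against 0.0208 to 0.0686 (2.59-fold), Cldn19 per Slc12a1 was 0.0353 to 0.0517 against 0.111 to 0.38 (4.54-fold), and Ptger3 per Slc12a1 was 0.0817 to 0.111 against 0.144 to 0.655 (3.43-fold). All 3 had the same exact p and adjusted p as Umod, and in each every KSP-Cre(+) library was above every Cre(-) library.

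In Kcnj1, Cldn10 and Bsnd the ratios to Slc12a1 of the 13 KSP-Cre(+) libraries overlapped those of Cre(-) libraries, at 1.07-fold (exact p = 0.697), 0.964-fold (0.792) and 1.11-fold (0.568) of the Cre(-) mean. In KI kidneys alone the ratios were higher by 3.09-fold for Umod, 3.84-fold for Cldn16, 5.42-fold for Cldn19 and 6.0-fold for Ptger3, each at the smallest exact p that 3 against 4 libraries allow (0.0286, adjusted 0.0643). The ratio of Kcnj1 was 1.68-fold (exact p = 0.0571), that of Cldn10 1.25-fold (0.4) and that of Bsnd 1.32-fold (0.0857). The KI libraries also lay above all Cre(-) libraries for Kcnj1, at 0.416 to 0.706 against 0.242 to 0.412, and for Bsnd, at 0.0914 to 0.103 against 0.0558 to 0.0857, and overlapped them for Cldn10. None of the 9 items passed the adjustment in KI kidneys.

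**Figure D3:**
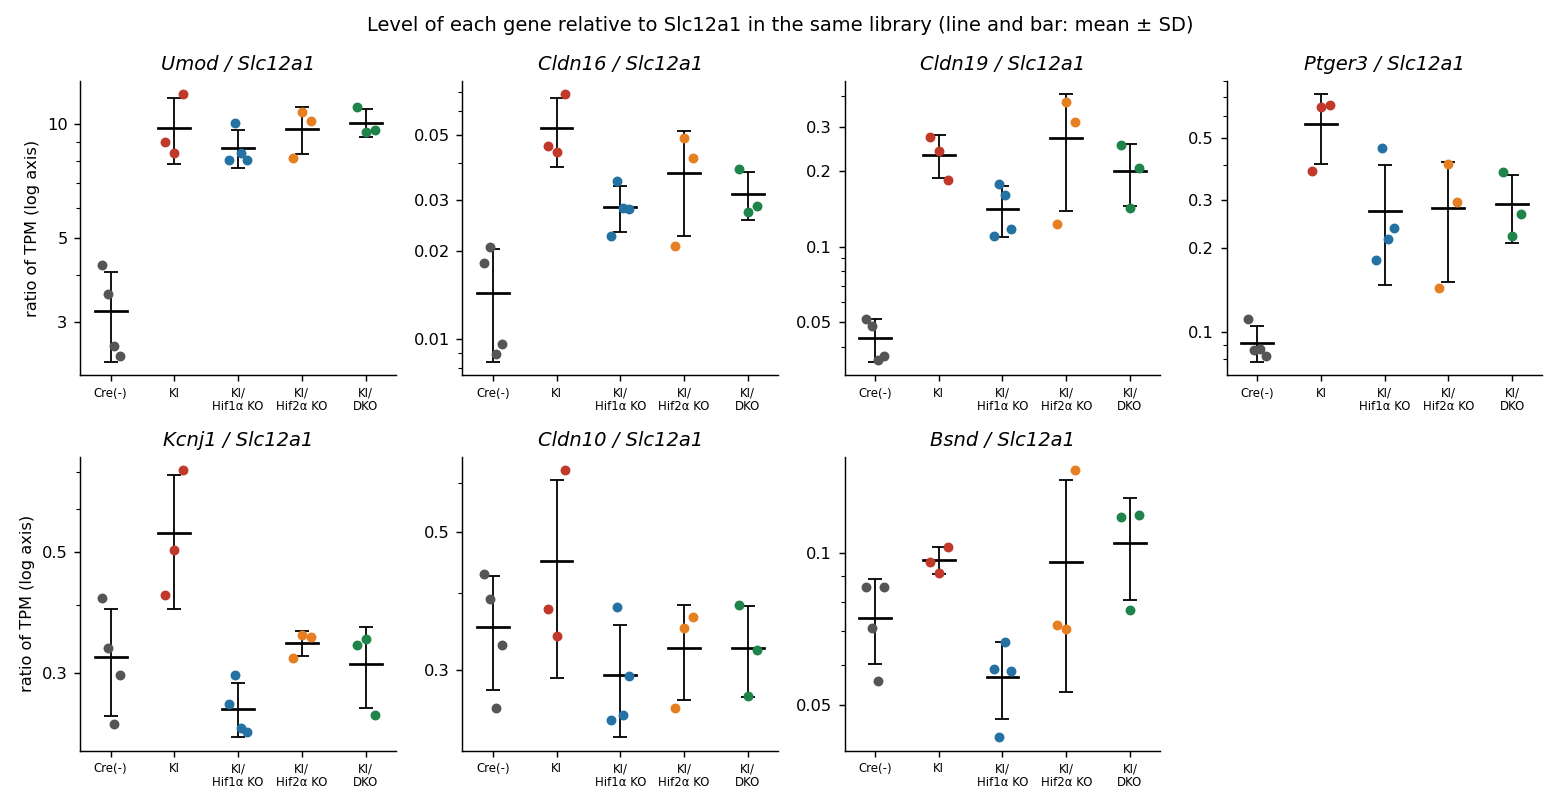
Ratio of the TPM of 7 genes to that of Slc12a1 in the same library (log axis), with 1 point per library, a line at the mean and a bar of 1 SD for each of the 5 groups. In the upper row (Umod, Cldn16, Cldn19, Ptger3) the 13 KSP-Cre(+) libraries lie above the 4 Cre(-) libraries, and in the lower row (Kcnj1, Cldn10, Bsnd) they overlap them as a whole, although the KI libraries of Kcnj1 and Bsnd lie above the Cre(-) libraries.

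Cldn10 is read from 2 alternative first exons, and its sum mixes 2 segments of the tubule. By background knowledge, the upstream exon gives claudin-10a, an anion pore of the proximal tubule, and the downstream exon gives claudin-10b, the sodium pore of the thick ascending limb. The 2 first exons start 66824 bases apart and are followed by 3 exons that both forms share in full. The first 60 coding bases of each (GRCm38, plus strand, start codon in capitals) are shown because they are what tells the forms apart, the upstream one at chr14:118788157-118788216 and the downstream one at chr14:118854990-118855049.
Cldn10, upstream form: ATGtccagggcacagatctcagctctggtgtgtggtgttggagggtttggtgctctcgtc
Cldn10, downstream form: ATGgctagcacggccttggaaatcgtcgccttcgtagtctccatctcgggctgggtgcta

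The upstream form held most of the Cldn10 signal in every library. Its level was 145 to 167 TPM in Cre(-) and 14.7 to 28.8 TPM in KI kidneys. The downstream, thick ascending limb form read 7.94, 14.7, 17.7 and 14.01 TPM in Cre(-) replicates 1 to 4 and 2.36, 1.81 and 2.84 TPM in KI replicates 1 to 3, with KI kidneys at 17.2% of the Cre(-) mean. In the knockouts the downstream form was at 47.3% (KI/Hif1α KO), 29.9% (KI/Hif2α KO) and 57.7% (KI/DKO) of the Cre(-) mean, and the upstream form at 27.0%, 24.9% and 34.1%. On TPM the median log2 difference of all genes from Cre(-) was 0.35, 0.43 and 0.45 in these groups. Percentages of TPM are therefore not comparable with the percentages of CPM given above for whole genes. The downstream form made up 5.18 to 10.2% of Cldn10 in Cre(-), 7.56 to 11.5% in KI, 12.1 to 15.6% in KI/Hif1α KO, 8.57 to 11.0% in KI/Hif2α KO and 10.1 to 14.8% in KI/DKO kidneys. Its share was 3.65 percentage points higher in the 13 KSP-Cre(+) than in the 4 Cre(-) libraries (exact permutation, two-sided, p = 0.0172). Without Cre(-) replicate 1, whose share was lowest, the difference was 2.71 points (exact p = 0.0839), and KI against Cre(-) kidneys alone differed by 2.01 points (exact p = 0.257). Downstream Cldn10 per Slc12a1 was 1.42-fold higher in KSP-Cre(+) libraries (exact p = 0.0462, adjusted 0.0832).

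The transcripts of Slc12a1 differ in 1 of 3 alternative copies of exon 5, each 96 bases long, that encode part of the membrane region of NKCC2. In genomic order they are known as B, A and F. Variant B is known from cortex and macula densa, F from the medulla and A from both. They are shown on the plus strand of GRCm38, with capitals at positions where not all 3 copies are the same, since these letters tell the copies apart. The transcript with the first copy is also annotated with an earlier start (125152505 against 125152600), so that reads there bear on its level too. They lie at chr2:125165495-125165590, chr2:125166123-125166218 and chr2:125166673-125166768.
Slc12a1 exon 5, first copy: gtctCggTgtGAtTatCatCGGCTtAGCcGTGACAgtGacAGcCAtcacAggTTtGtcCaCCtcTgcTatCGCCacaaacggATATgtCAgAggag
Slc12a1 exon 5, middle copy: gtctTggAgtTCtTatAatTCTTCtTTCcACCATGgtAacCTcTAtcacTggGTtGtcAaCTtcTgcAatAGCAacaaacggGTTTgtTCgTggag
Slc12a1 exon 5, last copy: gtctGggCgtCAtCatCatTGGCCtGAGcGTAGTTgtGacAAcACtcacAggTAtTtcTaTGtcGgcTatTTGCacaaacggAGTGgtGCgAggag

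The first and middle copies were identical at 63 of 96 positions (65.6%), the first and last at 66 (68.8%) and the middle and last at 56 (58.3%), and 51 positions were the same in all 3. Of the TPM of these 3 transcripts, the last copy held 70.5 to 88.9% in all 17 libraries, the middle one 6.72 to 23.4% and the first 0.828 to 7.24%. The order of the 3 copies was the same in every library, and all 3 forms were lower in each KI library than in each Cre(-) library. Mean TPM in KI kidneys was 5.59%, 20.5% and 10.6% of Cre(-) for the first, middle and last copy, and in KI/DKO kidneys 42.1%, 61.9% and 34.6%. Here too percentages of TPM are not comparable with those of CPM. The shares and levels of the 3 copies were not tested between groups.

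**Figure D4:**
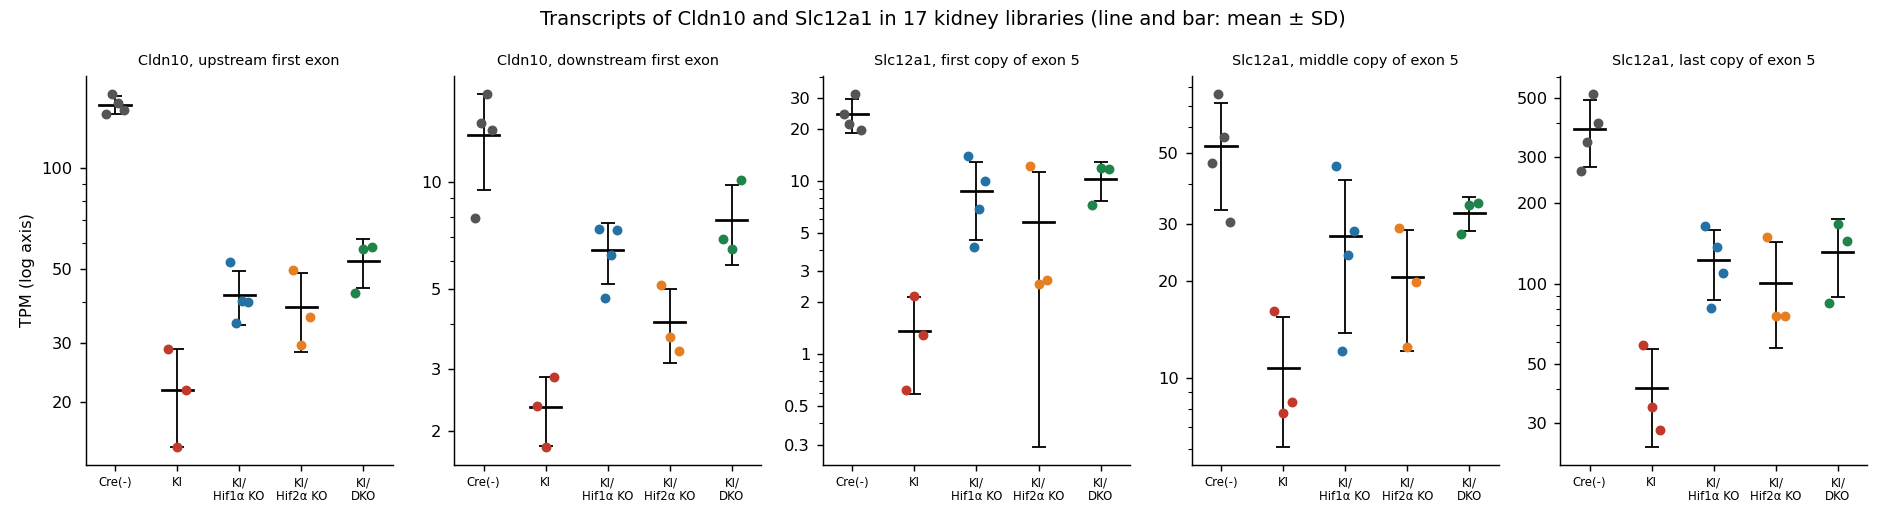
TPM (log axis) of the 2 forms of Cldn10 and the 3 forms of Slc12a1 in the 17 kidney libraries, with 1 point per library, a line at the mean and a bar of 1 SD for each of the 5 groups. The mean of every form is lowest in KI kidneys, and the Cldn10 form from the downstream first exon stands at 57.7% of its Cre(-) mean in KI/DKO kidneys, against 34.1% for the upstream one.

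For Kcnj1, the transcript from the upstream start held 77.4 to 91.2% of the TPM in all libraries. Its share was 86.6 to 89.3% in Cre(-), 83.1 to 84.6% in KI, 77.4 to 86.4% in KI/Hif1α KO, 87.1 to 89.6% in KI/Hif2α KO and 77.5 to 91.2% in KI/DKO kidneys, so that the KI and KI/Hif1α KO libraries lay below the Cre(-) libraries. In Ptger3 the makeup also differed between groups. The most abundant coding transcript held 57.2 to 71.2% of the TPM in Cre(-) and 80.3 to 87.8% in KSP-Cre(+) libraries, and a transcript annotated with a retained intron held 24.7 to 38.3% and 9.86 to 17.3%. The coding transcript read 22.9 to 37.2 TPM in Cre(-) and 22.2 to 26.9 TPM in KI kidneys, so that the groups overlapped. In KI/DKO kidneys it read 40.0 to 45.0 TPM, above every Cre(-) library. All genes, however, had a median log2 difference from Cre(-) of 0.38 in KI and 0.45 in KI/DKO kidneys on TPM. The TPM of this transcript thus cannot show whether it rose relative to other genes. The retained-intron transcript read 9.76 to 19.1 TPM in Cre(-) and 3.10 to 5.41 TPM in KI kidneys. These shares and transcript levels of Kcnj1 and Ptger3 were not tested.

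Promoter windows of RefSeq (GRCm38.p6, 250 bases before to 50 after a start) were found for 7 of the 8 genes, 9 windows in all, with none for Bsnd. Both strands were searched. The motif CACGTG, an E-box that TFE3 is known to bind, was in 0 of the 9 windows and in 7.15% of all 32851 windows. Other forms of the M-box TCAYRTGA, which the authors name for the MiTF/TFE family, were not searched. The core letters of hypoxia response elements were searched in both spellings. ACGTG, which is also part of the E-box, was in 2 of the 9 (Ptger3 and upstream Cldn10; 19.6% of all). GCGTG was in 5 of the 9 (Slc12a1, Ptger3, Kcnj1 and both starts of Cldn10; 32.4% of all). A match is not a binding site, and no match says only that these letters are not in the window. The windows of Slc12a1 (chr2:125152350-125152649) and of the upstream and downstream starts of Cldn10 (chr14:118787621-118787920 and chr14:118854700-118854999) are given on the plus strand with matches in capitals, since these are the genes with the largest fall.
Slc12a1: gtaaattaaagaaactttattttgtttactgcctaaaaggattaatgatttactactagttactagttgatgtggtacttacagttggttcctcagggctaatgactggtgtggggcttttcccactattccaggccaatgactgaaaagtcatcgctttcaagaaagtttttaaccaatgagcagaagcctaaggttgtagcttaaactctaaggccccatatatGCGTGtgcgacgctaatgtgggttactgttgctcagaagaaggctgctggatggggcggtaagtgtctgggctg
Cldn10, upstream: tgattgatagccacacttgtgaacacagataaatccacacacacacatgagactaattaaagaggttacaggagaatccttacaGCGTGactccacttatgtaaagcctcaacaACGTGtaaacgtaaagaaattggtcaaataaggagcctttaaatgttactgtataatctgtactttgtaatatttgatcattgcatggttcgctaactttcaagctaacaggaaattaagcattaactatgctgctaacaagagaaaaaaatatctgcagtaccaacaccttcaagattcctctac
Cldn10, downstream: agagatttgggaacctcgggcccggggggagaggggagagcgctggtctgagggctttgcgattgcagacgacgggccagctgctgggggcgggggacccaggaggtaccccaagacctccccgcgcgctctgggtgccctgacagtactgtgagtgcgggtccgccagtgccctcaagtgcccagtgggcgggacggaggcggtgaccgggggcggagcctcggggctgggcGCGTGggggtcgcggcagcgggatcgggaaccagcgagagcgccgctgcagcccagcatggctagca

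In Slc12a1 the match began 24 bases before the start. In upstream Cldn10 GCGTG began 166 and ACGTG 136 bases before the start, and in downstream Cldn10 GCGTG began 17 bases before it. The Kcnj1 window belongs to the downstream start, whereas the transcript from the upstream start held most of its TPM.

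Other genes that the segment needs for transport fell as well. Of a list of 25 transport partners and regulators, 24 were tested (Cldn14 was not). In KI against Cre(-) kidneys 18 of the 24 were lower and 2 higher, where 29.3% and 31.6% of all genes tested were. The median log2 fold change of the 24 was -1.27. With limma on log2(TPM + 1), where the median of all genes was 0.38, 14 were lower and 5 higher. Limma called 2458 of all genes tested lower and 8843 higher in this comparison. The largest fall was in Tmem207, a membrane protein of the tubule, with 19.6 to 51.2 CPM in Cre(-) and 0.114 to 0.402 CPM in KI kidneys (-7.07 ± 0.76, adjusted p = 1.06e-06). KI replicates 2 and 3 of Tmem207 were near the level of 3 counts. Slc9a3, the sodium-hydrogen exchanger NHE3, fell by 3.19 on the log2 scale and Pth1r, the parathyroid hormone receptor, by 2.96, and both are also expressed in the proximal tubule. Kcnj10, a potassium channel of the blood side, fell by 2.44 and Casr, the calcium-sensing receptor, by 1.83 on the same scale. Cldn3 (1.40 ± 0.25) and Maged2 (0.56 ± 0.13), which is known to support NKCC2 at the membrane, were higher in KI kidneys.

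In KI/Hif1α KO against KI kidneys 6 of the 24 were higher and none lower, where 2.57% of all genes tested were called higher. Among the 6 were Tmem207 (3.30) and Stk39 (0.47), the kinase SPAK that activates NKCC2. In KI/DKO kidneys 7 were higher and 1 lower, where 6.53% and 6.19% of all genes tested were. The higher genes included Tmem207 (3.57), the vasopressin receptor Avpr2 (1.16), Kcnj10 (1.07) and Casr (0.94). In KI/Hif2α KO kidneys none of the 24 was called by edgeR or limma, 3 were by DESeq2, and 7 had an unadjusted p under 0.05 in edgeR. Tmem207 had a log2 fold change of 2.81 there (adjusted p = 0.0921). It read 0.875 to 3.02 CPM in KI/Hif2α KO, 0.831 to 4.18 CPM in KI/Hif1α KO and 1.71 to 4.06 CPM in KI/DKO kidneys, all above KI and below Cre(-).

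Of 11 further genes of the segment and its macula densa, 6 were lower and 3 higher in KI against Cre(-) kidneys, where 29.3% and 31.6% of all genes tested were. Egf, the epidermal growth factor precursor made in the distal nephron, fell further than any of the 8 genes, from 1869 to 2385 CPM in Cre(-) to 12.4 to 24.99 CPM in KI kidneys (-6.77 ± 0.92, adjusted p = 1.18e-05). It was at 26.8 to 242 CPM in KI/Hif1α KO (2.71 ± 0.76 against KI, adjusted p = 0.0489), 16.5 to 160 CPM in KI/Hif2α KO (1.84 ± 0.76, adjusted p = 0.203) and 69.2 to 171 CPM in KI/DKO kidneys (2.61 ± 0.78, adjusted p = 0.0388). The receptor Esrrb (-4.26), the phosphatase inhibitors Ppp1r1a (-4.10) and Ppp1r1b (-2.39), Sostdc1 (-2.23) and Tmem72 (-1.16) were the others that fell. Nos1, the neuronal nitric oxide synthase known from the macula densa, went the other way. It read 3.66 to 5.49 CPM in Cre(-), 78.3 to 144 CPM in KI and 6.11 to 36.1 CPM in KI/DKO kidneys (4.78 ± 0.64 in KI against Cre(-), adjusted p = 1.03e-05, and -2.82 ± 0.63 in KI/DKO against KI, adjusted p = 0.0112). Irx2 (1.52) and Irx1 (0.96), transcription factors of the segment, were also higher, and Pou3f3 was not called (-0.10, adjusted p = 0.328). Against KI kidneys, 3 of the 11 were higher in KI/Hif1α KO, 1 in KI/Hif2α KO and 3 in KI/DKO kidneys. Of all genes tested 2.57%, 0.747% and 6.53% were called higher in these comparisons. Sostdc1 was among the higher genes in all 3 (1.06, 0.97 and 1.07).

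Genes of prostaglandin E2, the ligand of the Ptger3 receptor, were called in numbers near the background of 29.3% lower and 31.6% higher among all genes tested. Of 10 genes tested, 4 were lower in KI against Cre(-) kidneys, among them the synthase Ptges (-1.11 ± 0.18, adjusted p = 5.56e-05) and the degrading enzyme Hpgd (-1.02 ± 0.11, adjusted p = 8.09e-07), and 3 were higher, among them the receptor gene Ptger4 (0.60 ± 0.18, adjusted p = 0.00834). With limma on log2(TPM + 1) 2 were lower and 5 higher, where 2458 of all genes tested were called lower and 8843 higher. Ptger1, lower in edgeR (-0.64), turned to 0.61 in limma. None of the 10 was called in KI/Hif1α KO or KI/Hif2α KO against KI kidneys by edgeR or limma (1 in each at an unadjusted p under 0.05 in edgeR, and 1 and 0 called by DESeq2), and Ptger4 (0.71 ± 0.18) and Hpgd (0.64 ± 0.11) were higher in KI/DKO kidneys.

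Among the KSP-Cre(+) libraries the 8 genes were correlated to different degrees. Pearson r between each gene and the mean of all 8 (standardized log2 CPM, 13 libraries that share the 4 genotype groups and whole-kidney RNA) was 0.989 for Umod, 0.969 for Cldn16, 0.964 for Slc12a1, 0.956 for Cldn10, 0.89 for Bsnd, 0.873 for Kcnj1, 0.826 for Cldn19 and 0.757 for Ptger3, where each gene is part of that mean and the group means differ. Between pairs of genes it ran from 0.517 (Ptger3 with Bsnd) to 0.977 (Slc12a1 with Umod). Outside all lists, the genes most like that mean were Sgpp2 (0.98), Reck (0.974), Stxbp4 (0.971), Esrrg (0.964) and Ninl (0.964). In KI against Cre(-) kidneys all 5 were lower, with log2 fold changes from -0.71 (Reck) to -1.95 (Esrrg).

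In the knockout groups 1 library was lowest in most of the 8 genes. KI/Hif1α KO replicate 2 was lowest of its group in 6 of the 8 genes, KI/Hif2α KO replicate 2 in 5 and KI/DKO replicate 1 in all 8, whereas in KI kidneys replicates 2 and 3 were each lowest in 4. In the same 3 knockout libraries the proximal tubule markers had the lowest sum of their group, with 331.2 TPM in KI/Hif1α KO replicate 2 against 473.3 to 889.1 TPM in the others of that group, 264.2 TPM in KI/Hif2α KO replicate 2 against 314.0 and 771.9 TPM, and 489.3 TPM in KI/DKO replicate 1 against 646.4 and 780.7 TPM. Against KI kidneys, 5 of 8 proximal tubule markers were higher in KI/Hif1α KO, 0 of 8 in KI/Hif2α KO (5 at an unadjusted p under 0.05 in edgeR, 1 called by DESeq2 and 0 by limma) and 5 of 8 in KI/DKO kidneys. Of all genes tested 2.57%, 0.747% and 6.53% were called higher in these comparisons. The distal convoluted tubule markers had 1 of 4, 0 of 4 (1 at an unadjusted p under 0.05, 0 called by DESeq2 or limma) and 1 of 4 higher. Macrophage markers summed to 1201 to 1453 TPM in KI/Hif1α KO, 1391 to 1771 TPM in KI/Hif2α KO and 1012 to 1466 TPM in KI/DKO kidneys, each under the KI range of 1902 to 2135 TPM. The lower sum was that of Cd68 (log2 fold changes against KI of -0.93, -0.68 and -1.39), while the other 5 of 6 markers had positive log2 fold changes in each knockout group. Fibroblast markers were higher than in KI kidneys in 3, 3 and 4 of 5 cases. Cdh16, whose promoter drives Cre, was lower in KI than in Cre(-) kidneys (-0.87) and higher in KI/Hif1α KO (0.37) and KI/DKO (0.32) than in KI kidneys. The part of these differences in the levels of the 8 genes was not tested.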

How the data were processed

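Kidney RNA of 17 mice was sequenced from TruSeq stranded mRNA libraries on a NextSeq 500. The authors trimmed reads with Trim Galore 0.6.6 and cutadapt 2.5, aligned them with STAR 2.7.9a to a genome named as hg38, and ran RSEM with an annotation from hg38 or GRCm38. Whether strand was used in counting is not given in the sources used here. The deposited expected counts are estimates per mouse transcript, not normalized between libraries, and the deposited TPM are scaled for length and library total.

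Of 119353 transcripts, 116770 (97.8%, holding 99.04% to 99.24% of the expected counts) were matched to GENCODE M21 (GRCm38), and the other 2583 were left out. Values were summed per gene and the expected counts rounded. Groups were compared in R 4.3.3 with edgeR 4.0.16 (quasi-likelihood test, TMM factors, filterByExpr with a minimum count of 10), in 1 fit of all 17 libraries with Benjamini-Hochberg adjustment over the 17011 genes tested, with a threshold of 0.05. CPM are on TMM-scaled library sizes, and errors are SD for means and SE for log2 fold changes. Alternatives were DESeq2 1.42.0, its size factors in edgeR, no filter, only 2 groups, the replicate number as a block, limma 3.58.1 on log2(TPM + 1) and log2(TPM + 0.1), either pair of Cre(-) mice, and each replicate left out. Ratios and transcript shares were tested by exact permutation, whose smallest p is 0.0286 for 3 against 4 libraries. Simulated counts for KI against Cre(-) kidneys were used to test edgeR with either scaling, with the replicate block and with only 2 groups. DESeq2 and limma on log2(CPM + 1) were tested on them too. The other alternatives and the permutation tests were not tested on simulated data. Python 3.11.15 was used for tables (pandas 2.3.3) and plots (matplotlib 3.10.9).

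The 8 genes and all lists were chosen with earlier results of these data known. Genes of the lists are named by a rule, which takes at most the 4 with the largest change in each direction per list among those called with a mean TPM of at least 1, plus those whose role is tied to one of the 8 genes, and the 5 genes most like the 8 by Pearson r. Some genes of the lists that the rule takes are counted but not reported by name here. The 3-count limit covers counting error only.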

Additional observations from a re-analysis of the deposited data

Results flagged for a closer look

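Of 16 groups of 4 libraries tested for a library far from the rest (the 8 genes in Cre(-) and KI/Hif1α KO kidneys), 1 was flagged, and chance flags about 1 in 20. It was Ptger3 in Cre(-) replicate 3, at 133.0 CPM against 89.7 to 95.1 CPM in the other Cre(-) libraries.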

How the results depend on the processing

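Of the 68 alternative values of the gene counts, ratio counts and Cldn10 shares that did not leave out a replicate, 62 kept their size and 6 moved. In KI/Hif1α KO against KI, with 4 genes called, a fit of only the 2 groups called 1. In KI/Hif2α KO against KI, with 1 called, DESeq2 called 5, limma on log2(TPM + 1) 2, and limma on log2(TPM + 0.1), the fit of only the 2 groups and the replicate block each 0. Ptger3 in KI/DKO against Cre(-) turned from -0.46 to 0.24 with limma on log2(TPM + 1) and to 0.25 on log2(TPM + 0.1).

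Leaving out each replicate in turn gave 7 to 8 genes called in KI against Cre(-), 1 to 5 in KI/Hif1α KO, 0 to 4 in KI/Hif2α KO and 4 to 8 in KI/DKO against KI, and 0 in every fit of the single knockouts against each other. Against Cre(-) it gave 6 to 7 in KI/Hif1α KO, 6 to 7 in KI/Hif2α KO and 5 to 6 in KI/DKO. Ratios called stayed at 4 for KSP-Cre(+). For KI a count of 0 was fixed in advance, since too few libraries were left for an exact p under 0.05. The Cldn10 share differed by 2.71 to 4.38 points for KSP-Cre(+) and 1.07 to 3.23 points for KI.

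Libraries with the same replicate number did not deviate together: of 31 such pairs, 4 had a correlation over 0.1 (range -0.22 to 0.25). With the replicate block, Umod in KI/Hif2α KO against KI was lost (adjusted p = 0.0664), and no other call of the 8 genes changed. Groups of 3 or 4 libraries limit which of the smaller differences could be called. The cause of these changes was not tested.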
